A study of Mus musculus with 8 samples.

Results

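The genes described are 9 marker genes of resident cardiac macrophages, F13a1, Vsig4, Lyve1, Timd4, Folr2, Cd163, Mgl2, Cbr2 and Retnla, out of 38293 gene identifiers counted in the series. They were listed by name and chosen by their levels in the same 8 libraries, after an earlier reading of these counts in which markers of this cell type lay lower in the antimiR-195 group. Their difference between the groups is therefore given as a description, without a test. All 9 were found by symbol in the count table and all 9 passed the filter on low counts. The series holds 8 RNA libraries of whole left ventricles of C57BL/6J mice, 4 a group, and every mouse had cardiac ischemia-reperfusion, the tying off and release of the left anterior descending coronary artery. In the antimiR-195 group, the UPy-PEG hydrogel injected into the heart muscle (2 injections of 10 µl) carried antimiR-195, a short oligonucleotide that blocks miR-195, a microRNA. In the hydrogel group the same gel carried no drug. Hearts were taken at day 3, and both groups share the injury and the gel, so neither is a picture of uninjured or untreated muscle. The age of the mice is not given in the sources used here, and the labels number the ventricles without saying that each came from its own mouse, so the spread between libraries may be partly technical.

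Macrophages reside in the healthy heart as a population that is seeded largely before birth and maintains itself locally, clearing dying cells, debris and iron-laden remnants of red cells. In mouse the self-maintaining cells are marked by TIMD4, LYVE1 and FOLR2 and lack the chemokine receptor CCR2. After infarction, resident macrophages are lost from the injured zone, and monocytes that enter through CCR2 give rise to most of the macrophages found there in the first days. A left ventricle RNA library sees the sum of all these cells, and in such bulk samples fewer cells of a type and less RNA per cell cannot be told apart.

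The drug binds miR-195, so its sequence is shown first, with related miRNAs of the same family, as RefSeq gives them for GRCm38.p6. Capitals mark the seed, bases 2 to 8 counted from the 5′ end, which pairs with target transcripts.
mmu-miR-195a-5p: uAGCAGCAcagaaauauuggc
mmu-miR-16-5p: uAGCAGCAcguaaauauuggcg
mmu-miR-15b-5p: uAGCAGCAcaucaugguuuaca
mmu-miR-497a-5p: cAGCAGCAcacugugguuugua
All of them share the seed AGCAGCA, and so do miR-15a-5p, miR-322-5p and miR-195b. A target transcript pairs with bases 2 to 8 where it reads TGCTGCT. It pairs with bases 2 to 7 and has an A opposite base 1 where it reads GCTGCTA. None of the 9 genes held either of these words in its longest annotated 3′ UTR, which ran from 160 bases in Retnla to 1587 bases in F13a1. The shorter core that these words share was at 0 occurrences in all 9 as well. Among the 12874 tested genes with a 3′ UTR of at least 50 bases, 3671 or 28.5% held such a word, and the median 3′ UTR of these 12874 genes was 1205 bases long. Of the 9, only F13a1 and Lyve1, the latter at 1565 bases, had a 3′ UTR longer than that median. Whether 3′ UTRs as short as the others would hold such a word as often was not tested. The absence says only that these letters are not in those stretches. By position, Mgl2 is the nearest of the 9 to the miRNA, on chromosome 11 with 98 kb between the end of the gene and mature miR-195a-5p.

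Levels per length, as the authors' RPKM, placed the 9 transcripts in a steep order. Cbr2, a carbonyl reductase, averaged 28.7 ± 7.54 RPKM with antimiR-195 and 26.9 ± 2.89 RPKM with hydrogel alone (SD, n = 4 each, here and below). F13a1, the catalytic subunit of the clotting factor that cross-links fibrin, averaged 22.0 ± 1.18 RPKM with antimiR-195 and 28.0 ± 2.20 RPKM with hydrogel alone. Folr2, folate receptor beta, averaged 17.02 ± 2.69 RPKM with antimiR-195 and 19.8 ± 1.29 RPKM with hydrogel alone. These 3 formed the upper tier, in which Cbr2 exceeded F13a1 in only 5 of 8 libraries, a difference within the spread, and F13a1 exceeded Folr2 in 7 of 8. A middle tier began with Lyve1 at 5.60 ± 1.33 RPKM with antimiR-195 and 7.37 ± 1.06 RPKM with hydrogel alone. Cd163 followed at 4.62 ± 2.03 RPKM with antimiR-195 and 5.99 ± 2.09 RPKM with hydrogel alone. Retnla had 3.30 ± 0.786 RPKM with antimiR-195 and 4.64 ± 3.20 RPKM with hydrogel alone, and Mgl2 3.02 ± 0.670 RPKM with antimiR-195 and 3.92 ± 0.903 RPKM with hydrogel alone. Neighbours within this tier differed by less than the SD of their difference over the 8 libraries. Lowest were Vsig4, at 1.52 ± 0.231 RPKM with antimiR-195 and 2.15 ± 0.345 RPKM with hydrogel alone, and Timd4, at 0.607 ± 0.144 RPKM with antimiR-195 and 0.899 ± 0.324 RPKM with hydrogel alone. Mgl2 lay above Vsig4 and Vsig4 above Timd4 in all 8 libraries.

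Between the groups, levels were compared as CPM, the counts scaled to the TMM-normalized library size. F13a1 (ENSMUSG00000039109, chr13:36867178-37050244, minus strand, GRCm38 as for all positions here) had 83.5, 78.5, 87.0 and 93.6 CPM in antimiR-195 replicates 1 to 4, against 108, 112, 105 and 118 CPM in hydrogel replicates 1 to 4. Every antimiR-195 library lay below every hydrogel library. Of the 9 genes this was the case for 1, F13a1, where 0.544% of all 13972 genes tested had the same arrangement, and the other 8 overlapped. The opposite arrangement, antimiR-195 libraries all above, was found for none of the 9 and for 0.53% of all genes. The log2 difference of F13a1 was -0.37 ± 0.10 (SE, antimiR-195 over hydrogel, here and below), and it stayed between -0.42 and -0.34 when any 1 library was left out. F13a1 is also carried by monocytes and platelets. The monocyte list had 3 of 8 tested genes negative, Ccr2 at -0.32 ± 0.13 among them, and 5 positive. In the hydrogel group F13a1 and Ccr2 were both highest in replicate 4 and lowest in replicate 3. With antimiR-195, F13a1 was lowest in replicate 2 and Ccr2 in replicate 3. The part of monocytes in the F13a1 values was not tested. The platelet list had 2 of 5 genes above the filter, Itga2b with a log2 difference of 0.24 ± 0.34 and Ppbp with 0.10 ± 0.21. Its summed level was 8.98 to 15.8 CPM with antimiR-195 and 7.52 to 12.4 CPM with hydrogel alone, highest in antimiR-195 replicate 2, none of its genes was at 0 in all libraries, and its part in the F13a1 values was not tested.

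**Figure D1:**
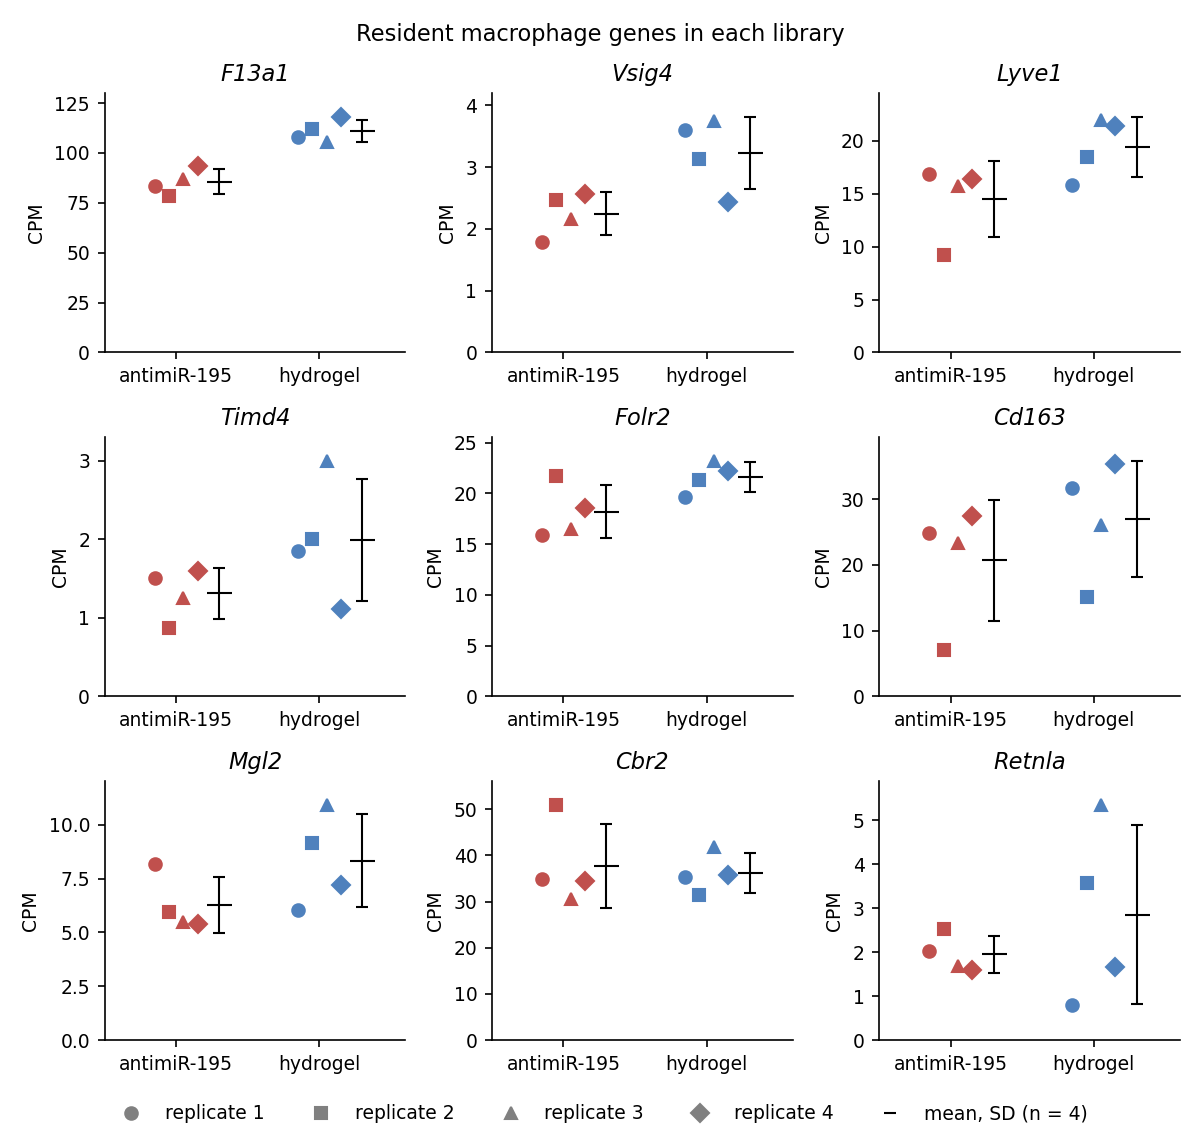
CPM of the 9 genes in each library, antimiR-195 at the left and hydrogel at the right of each panel; marker shapes are replicates, and the bar beside each group is its mean and SD (n = 4). F13a1 alone has no overlap between groups, antimiR-195 replicate 2 is the lowest library for F13a1, Lyve1, Timd4 and Cd163, and hydrogel replicate 3 is the highest for 6 genes.

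The surface receptors of the tissue-resident cells came next. Lyve1 (chr7:110850607-110863239, minus strand), which binds hyaluronan on macrophages and on lymphatic endothelium, had 16.9, 9.19, 15.7 and 16.3 CPM with antimiR-195 and 15.9, 18.5, 22.0 and 21.4 CPM with hydrogel alone. The groups overlapped through hydrogel replicate 1, and antimiR-195 replicate 2 stood far below its group. For Lyve1 the log2 difference was -0.42 ± 0.19, or -0.26 without antimiR-195 replicate 2. Timd4 (chr11:46810800-46844332, plus strand), the phosphatidylserine receptor with which these cells bind dying cells, had 1.51, 0.875, 1.26 and 1.59 CPM with antimiR-195 and 1.85, 2.00, 3.00 and 1.11 CPM with hydrogel alone. Hydrogel replicate 4 sat inside the antimiR-195 range, and hydrogel replicate 3 was highest. On the log2 scale the difference of Timd4 was -0.61 ± 0.32, or -0.34 without hydrogel replicate 3, and it rested on 16 to 65 reads per library. Vsig4 (chrX:96247203-96293438, minus strand), the complement receptor that takes up particles coated with C3 fragments, had 1.79, 2.46, 2.15 and 2.56 CPM with antimiR-195 and 3.596, 3.13, 3.74 and 2.44 CPM with hydrogel alone. Only hydrogel replicate 4 reached into the antimiR-195 range. Vsig4 thus had a log2 difference of -0.53 ± 0.21, based on 32 to 81 reads per library.

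Folr2 (chr7:101839988-101857194, minus strand) had 15.9, 21.7, 16.5 and 18.6 CPM with antimiR-195 and 19.7, 21.3, 23.2 and 22.3 CPM with hydrogel alone. AntimiR-195 replicate 2 was the exception here, inside the hydrogel range, while the other 3 lay below all hydrogel libraries. The log2 difference of Folr2 was -0.25 ± 0.13, and it was -0.36 without antimiR-195 replicate 2. Cd163 (chr6:124304656-124330527, plus strand), the scavenger receptor for haemoglobin bound to haptoglobin, had 24.8, 7.06, 23.4 and 27.5 CPM with antimiR-195 and 31.7, 15.1, 26.1 and 35.3 CPM with hydrogel alone. One library in each group was low, antimiR-195 replicate 2 and hydrogel replicate 2, and the mean was 20.7 ± 9.24 CPM with antimiR-195 and 27.0 ± 8.81 CPM with hydrogel alone, a gap smaller than either SD. Its log2 difference was -0.39 ± 0.37, against -0.11 once antimiR-195 replicate 2 was left out, -0.24 without hydrogel replicate 4, -0.58 without hydrogel replicate 2 and -0.04 with limma-voom and quality weights.

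The remaining genes are tied to alternative activation or to metabolism. Mgl2 (chr11:70130329-70137550, plus strand), a lectin for galactose-type sugars that is also carried by dendritic cells, had 8.18, 5.96, 5.51 and 5.41 CPM with antimiR-195 and 6.03, 9.14, 10.9 and 7.22 CPM with hydrogel alone. AntimiR-195 replicate 1, the highest of its group, lay above hydrogel replicates 1 and 4. Mgl2 had a log2 difference of -0.41 ± 0.21, or -0.25 without hydrogel replicate 3. Reads that align equally to Mgl2 and to its neighbour and close relative Clec10a would be counted for neither gene, and how many were lost was not measured. Retnla (chr16:48842551-48844461, plus strand), a secreted protein that IL-4 and IL-13 induce in macrophages through STAT6, had 2.02, 2.52, 1.68 and 1.59 CPM with antimiR-195 and 0.793, 3.57, 5.35 and 1.67 CPM with hydrogel alone. The hydrogel libraries held both the lowest and the highest values and enclosed all antimiR-195 libraries. With all libraries its log2 difference was -0.55 ± 0.47, against -0.87 without hydrogel replicate 1, -0.05 without hydrogel replicate 3 and -0.19 with limma-voom and quality weights. Cbr2 (chr11:120729489-120732114, minus strand) had 34.9, 51.0, 30.5 and 34.4 CPM with antimiR-195 and 35.4, 31.3, 41.9 and 35.7 CPM with hydrogel alone. Its highest library was antimiR-195 replicate 2, and its log2 difference was 0.06 ± 0.17, or -0.13 without that library.

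**Figure D2:**
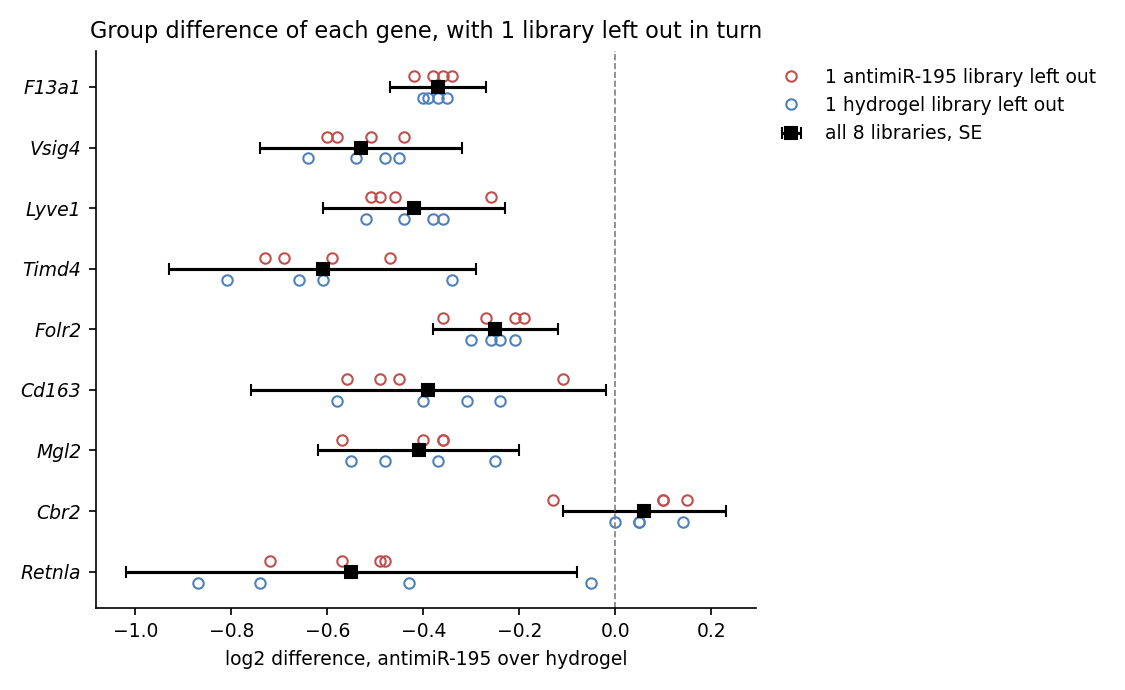
Log2 difference of each gene, antimiR-195 over hydrogel, with all 8 libraries (black squares, SE) and with 1 library left out (open circles, red where an antimiR-195 library and blue where a hydrogel library was left out). F13a1 stays between -0.42 and -0.34, whereas Retnla reaches -0.05 and Cd163 -0.11.

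Counted as a list, 8 of the 9 genes had a negative log2 difference and 1, Cbr2, a positive one, with a median of -0.41. Over all 13972 genes tested, 47.6% were negative, 52.4% were positive and the median was 0.01. With edgeR's quasi-likelihood test and a Benjamini-Hochberg threshold of 0.05, 0 of 9 were called, beside 0 of 13972 or 0% of all genes, and 178 genes or 1.27% had an unadjusted p below 0.05. DESeq2 and limma also called 0 genes. The summed level of the 9 genes was 179 to 202 CPM over the antimiR-195 libraries and 216 to 245 CPM over the hydrogel libraries, and F13a1 made up the largest part of it. The mean log2 CPM of the 9 genes was 3.33, 3.09, 3.21 and 3.35 in antimiR-195 replicates 1 to 4 and 3.39, 3.58, 3.93 and 3.49 in hydrogel replicates 1 to 4. The gap between the nearest libraries, antimiR-195 replicate 4 and hydrogel replicate 1, was narrow beside the spread within the hydrogel group.

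Within the groups the 9 genes did not all vary together. After the mean of each group was taken out, each gene was compared with the mean of the other 8. Pearson's r over the 8 libraries ran from -0.21 for F13a1 to 0.54 for Timd4, with Retnla at 0.50, Mgl2 at 0.41 and Lyve1 at 0.27. Vsig4 at 0.07 and Folr2 at 0.01 were near 0, and Cbr2 at -0.12 and Cd163 at -0.13 were negative. Hydrogel replicate 3 was the highest of its group for 7 genes and hydrogel replicate 1 the lowest for 4. AntimiR-195 replicate 2 was the lowest of its group for 4 genes and the highest for 3. The genes outside the list whose pattern within the groups was most like the mean of the 9 were Ces1d, a carboxylesterase, with r = 0.978, Mtfr1l, a mitochondrial fission regulator, with 0.966, Tspan13, a tetraspanin, with 0.962, Rab4a, a small GTPase of endosomes, with 0.958, the non-coding 1110018N20Rik with 0.952, and Pdhx, a component of pyruvate dehydrogenase, with 0.951. They were the top of 13247 candidates, 29 of which exceeded 0.9, and over 8 libraries each gene shares the depth and RNA quality of the library with the 9. None of the 6 is in a macrophage list used here. Ces1d itself had a log2 difference of -0.07 ± 0.17.

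Libraries of both groups differed by gene length. The authors' RPKM imply lengths of 598 bases for Retnla, 1079 for Folr2, 1327 for Cbr2, 1484 for Vsig4, 2094 for Mgl2, 2173 for Timd4, 2607 for Lyve1, 3927 for F13a1 and 4492 for Cd163. In antimiR-195 replicate 2, genes shorter than 1500 bases stood a median of 0.67 above the other 3 libraries of the group on the log2 scale, and genes longer than 5000 bases stood at -0.33. In that library Cbr2 at 0.62, Retnla at 0.50, Vsig4 at 0.19, Mgl2 at -0.07 and F13a1 at -0.16 lay within the quartiles of the genes of like length. Folr2 at 0.35 lay just below them. Far below lay Lyve1 at -0.82, where genes of like length had a median of 0.11, Timd4 at -0.66, where they had 0.19, and Cd163 at -1.82, where they had -0.14. The lower quartile of genes of like length was -0.25 for Lyve1, -0.13 for Timd4 and -0.45 for Cd163. The part of gene length in these 3 values was not tested. Hydrogel replicate 3, the highest of its group for 7 of the 9, leaned the same way as antimiR-195 replicate 2, with short genes at 0.27 and long genes at -0.11. There F13a1, Vsig4, Folr2, Cd163 and Cbr2 lay within the quartiles of genes of like length, and Retnla at 1.6, Timd4 at 0.86, Mgl2 at 0.57 and Lyve1 at 0.25 lay above them. AntimiR-195 replicate 3 ran the other way, with its short genes at -0.46 and its long genes at 0.25. A limma-trend fit was run on log2 CPM with the length trend of each library removed and with it kept, both chosen after seeing the data. The median of the 9 genes was -0.41 with the trend removed and -0.39 with it kept. Retnla was at -0.31 with the trend removed and -0.23 with it kept, Folr2 at -0.31 with it removed and -0.26 with it kept, Lyve1 at -0.45 in both, and 0 genes were called in either.

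**Figure D3:**
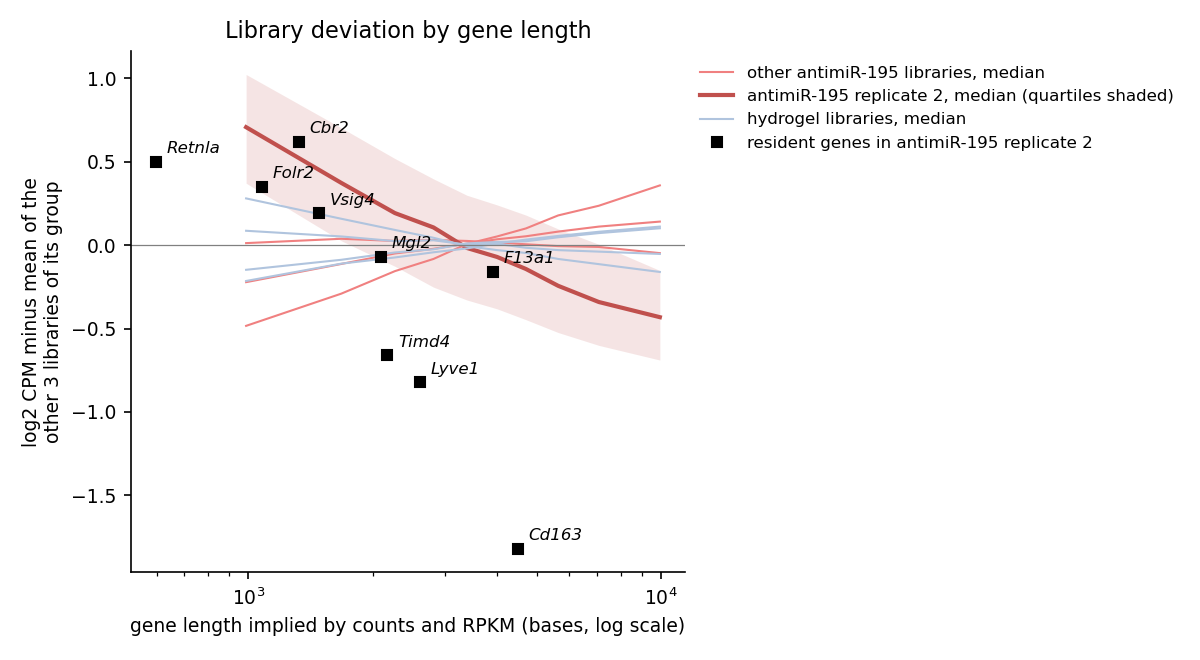
Deviation of log2 CPM from the other 3 libraries of the same group against gene length (log axis), as medians over 10 bins of genes; the thick line is antimiR-195 replicate 2 with its quartiles shaded, thin lines are the other libraries, and squares are the 9 genes in antimiR-195 replicate 2. Cbr2, Retnla, Folr2 and Vsig4 lie above 0, and Cd163 at -1.82, Lyve1 at -0.82 and Timd4 at -0.66 lie far below the shaded range.

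Other macrophage genes were measured to see how far the pattern extended. The core list, chosen as genes of macrophages in general, had 7 of 16 genes negative and 9 positive, a median of 0.04, and 0 called. The part of other cells in the values of the core list was not tested. Adgre1, which encodes the F4/80 antigen, averaged 39.3 ± 5.37 CPM with antimiR-195 and 44.0 ± 7.25 CPM with hydrogel alone, a log2 difference of -0.16 ± 0.15. Csf1r, the receptor for the growth factor that macrophages depend on, was at -0.20 ± 0.11, Cd68, a lysosomal glycoprotein, at -0.07 ± 0.21 and Fcgr1, a high-affinity receptor for antibodies, at 0.30 ± 0.22. Macrophage transcripts were thus present in all 8 libraries, and whether the RNA of the 9 genes came from resident cells was not tested. The mean log2 CPM of the 9 genes minus that of the 16 core genes was -2.73, -3.46, -2.69 and -2.72 in antimiR-195 replicates 1 to 4 and -2.73, -2.54, -2.05 and -2.96 in hydrogel replicates 1 to 4. Relative to the core genes the groups overlapped, with antimiR-195 replicate 2 lowest and hydrogel replicate 3 highest. Core genes had implied lengths of 564 to 6377 bases, and genes shorter than 1500 bases stood 0.67 higher in antimiR-195 replicate 2. The core median was -0.06 with the length trend removed and 0.00 with it kept. The 9 genes had -0.41 with it removed and -0.39 with it kept. Without antimiR-195 replicate 2, the library with the highest core level of 6.54, the core median was -0.21, beside -0.36 for the 9 genes. With limma-voom and quality weights the core median was -0.14, beside -0.27 for the 9 genes. In these 2 settings the 9 genes and the core list lay closer together than with all libraries weighted alike.

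**Figure D4:**
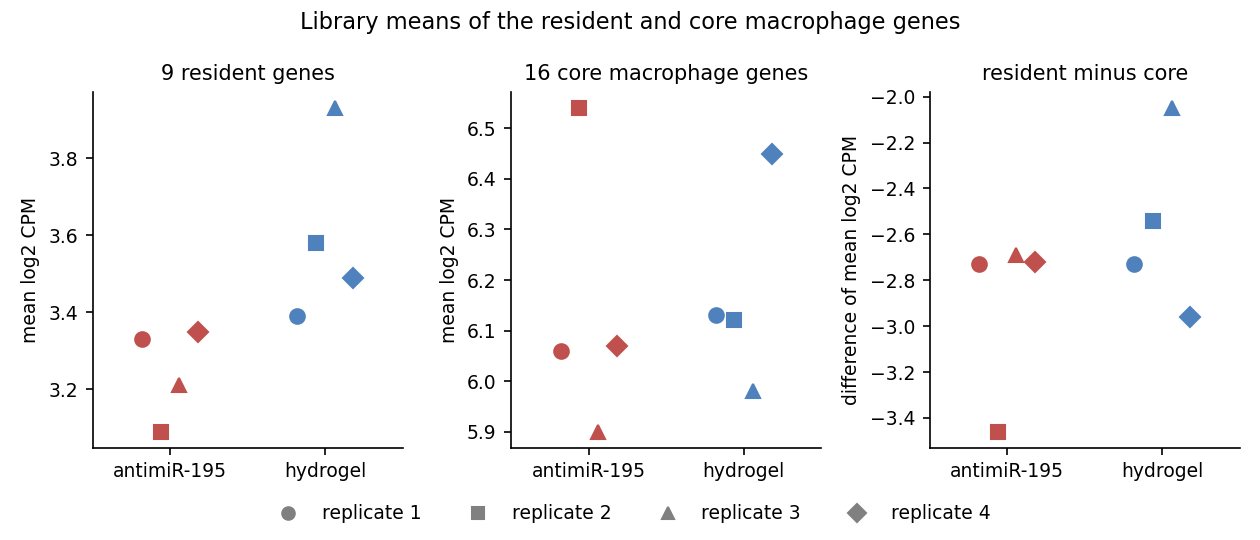
Mean log2 CPM of the 9 resident genes (left), of the 16 core macrophage genes (middle), and their difference (right) in each library, with marker shapes for replicates. The resident mean is 3.09 to 3.35 with antimiR-195 and 3.39 to 3.93 with hydrogel, while the difference overlaps between the groups.

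A second list of genes that resident cardiac macrophages express, none of them among the 9, had 9 of 14 tested genes negative and 5 positive, with a median of -0.08 and 0 called. That median was -0.19 without antimiR-195 replicate 2, 0.00 without antimiR-195 replicate 3 and -0.16 with limma-voom. Mrc1, the mannose receptor, averaged 80.1 ± 4.64 CPM with antimiR-195 and 87.2 ± 10.99 CPM with hydrogel alone, a log2 difference of -0.12 ± 0.12. Stab1, a scavenger receptor, was at 0.01 ± 0.18, and the chemokine Pf4 at 0.20 ± 0.30 with antimiR-195 replicate 2 highest. Gas6, the bridging protein between phosphatidylserine and the receptors MERTK and AXL, averaged 187 ± 9.85 CPM with antimiR-195 and 217 ± 10.6 CPM with hydrogel alone, a log2 difference of -0.21 ± 0.10, with the groups just apart. It was the 1 gene of the 14 with every antimiR-195 library below every hydrogel library, beside 0.544% of all genes tested. Of this list, 2 genes, Cd209f and Cd209g, stayed below 1 CPM in every library. The part of other cells of the ventricle in the values of this list, Gas6 and Pf4 included, was not tested.

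Genes of recruited cells had medians above 0, and none was called. The monocyte list had 3 of 8 tested genes negative and 5 positive, and its median was 0.14, with a range of 0.04 without antimiR-195 replicate 2 to 0.22 without hydrogel replicate 1. Ccr2, the receptor that defines recruited cells, averaged 29.4 ± 2.37 CPM with antimiR-195 and 36.7 ± 5.86 CPM with hydrogel alone, a log2 difference of -0.32 ± 0.13, while Ly6c2, a surface marker of inflammatory monocytes, was at 0.84 ± 0.38, Plac8 at 0.41 ± 0.27 and Chil3, a chitinase-like protein, at -0.31 ± 0.38. Ly6c2 rested on 22 to 87 reads per library. Both Ly6c2, at 4.76 CPM, and Plac8, at 22.6 CPM, were highest in antimiR-195 replicate 2. The list of injury macrophage genes had 1 of 9 genes negative and 8 positive, and its median was 0.19. Leaving out 1 library gave 0.00 without antimiR-195 replicate 2, 0.31 without antimiR-195 replicate 3 and 0.35 without hydrogel replicate 4, and limma-voom gave 0.02. Spp1, or osteopontin, had a log2 difference of 0.25 ± 0.25, the lipid receptor Trem2 at 0.13 ± 0.25, Lgals3, or galectin-3, at 0.19 ± 0.25 and Gpnmb at -0.38 ± 0.32. MHC class II genes, which present antigen, had 5 of 7 negative and a median of -0.05, or -0.33 without antimiR-195 replicate 2. Leaving out antimiR-195 replicate 3 or hydrogel replicate 3 gave 0.09. H2-Aa had a log2 difference of -0.18 ± 0.18, H2-Ab1 was at -0.02 ± 0.23, H2-Eb1 at -0.06 ± 0.24 and Cd74, the invariant chain, at 0.01 ± 0.27.

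Dendritic cell genes, read beside Mgl2, had 3 of 5 tested genes negative and a median of -0.08. Their summed level was 20.4 to 24.6 CPM with antimiR-195 and 20.9 to 25.5 CPM with hydrogel alone, most of it Zbtb46, a transcription factor that endothelium also expresses, with a log2 difference of -0.08 ± 0.15. Flt3, a receptor of dendritic cell precursors, was at -0.49 ± 0.34, Cd209a at -0.34 ± 0.31 and Ccr7, the receptor that guides them to lymph nodes, at 0.74 ± 0.38, all near 1 CPM, and Xcr1, Itgae and Siglech stayed below 1 CPM in every library. The part of dendritic cells in the Mgl2 values was not tested. Among other cells of the ventricle, neutrophil genes had a median of 0.15 over 6 tested genes, or -0.22 without antimiR-195 replicate 2, the library in which their summed level reached 72.4 CPM. Medians were -0.04 over 6 blood endothelial genes, 0.01 over 6 fibroblast genes and 0.03 over 6 cardiomyocyte genes, the last -0.08 without antimiR-195 replicate 2. T, NK and B cell genes had 2 of 9 above the filter, with a median of 0.48, or 0.10 on the log2(RPKM + 1) scale that shrinks low genes, at summed levels of 3.19 to 4.54 CPM with antimiR-195 and 2.75 to 3.50 CPM with hydrogel alone.

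**Figure D5:**
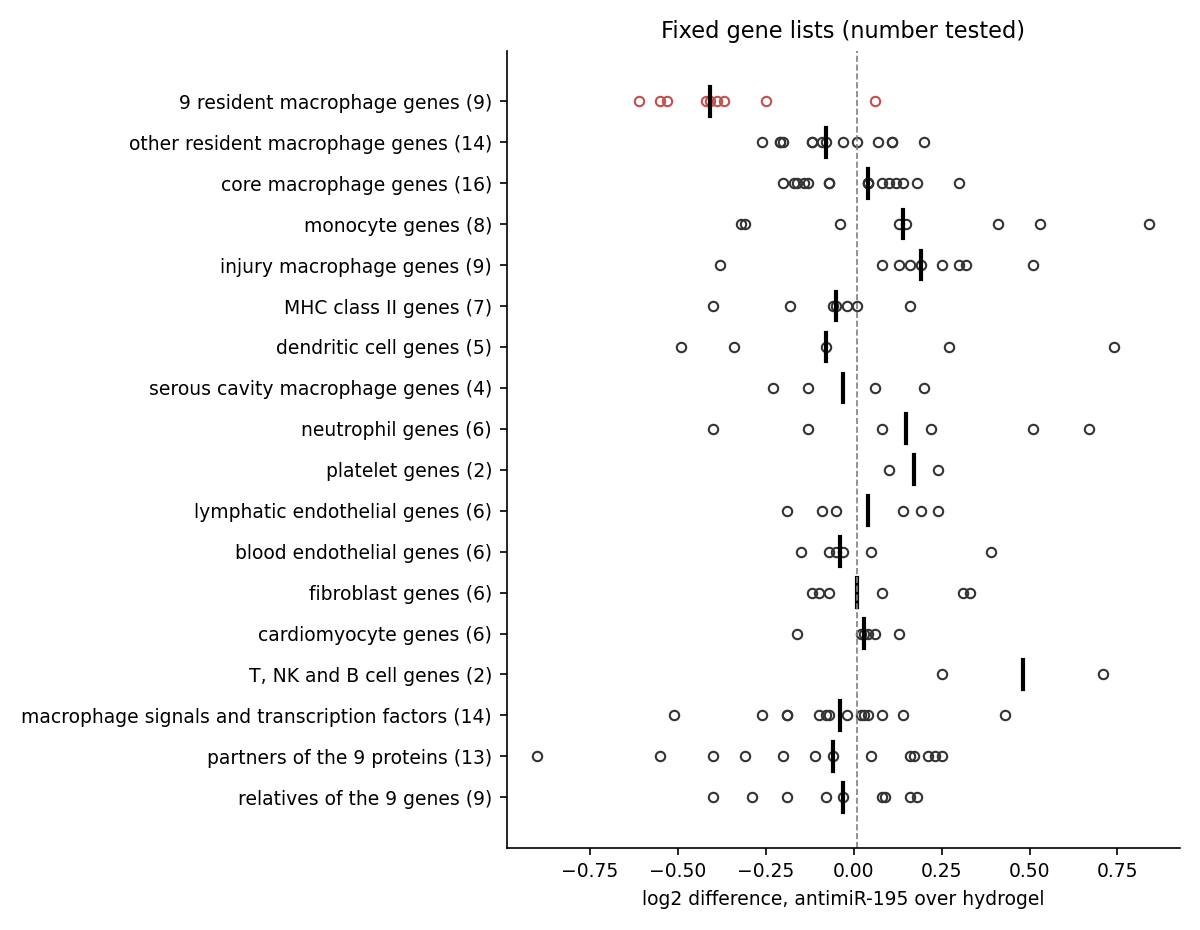
Log2 difference of every tested gene of the fixed lists, antimiR-195 over hydrogel; circles are genes (red for the 9 resident genes), black bars are list medians, and the dashed line is the median of all genes tested, 0.01. The median of the 9 genes is -0.41, and that of the second resident list is -0.08.

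Because LYVE1 also marks lymphatic vessels, their genes were read beside it. The list had 3 of 6 genes negative, a median of 0.04 and a summed level of 114 to 161 CPM with antimiR-195 and 115 to 151 CPM with hydrogel alone, and no gene of it was at 0. Flt4, the VEGF-C receptor, had a log2 difference of 0.14 ± 0.14, Pdpn, or podoplanin, at 0.24 ± 0.19 and Mmrn1 at -0.09 ± 0.26. Prox1, the lymphatic transcription factor that heart muscle also expresses, was at -0.05 ± 0.27. In antimiR-195 replicate 2, where Lyve1 was lowest, Prox1 at 35.7 CPM, Mmrn1 at 3.67 CPM and Reln at 2.79 CPM were lowest too. Pdpn at 26.9 CPM and Ccl21a at 26.0 CPM were highest in that library, and Flt4 was neither. Prox1, Mmrn1, Reln and Flt4 are longer than 5000 bases, and genes of such length stood at -0.33 there. The part of lymphatic vessels in the Lyve1 values was not tested. Serous cavity macrophages also carry Timd4 and Retnla; of their 5 listed genes, 4 were tested, 2 were negative and 2 positive, the summed level was 76.4 to 88.8 CPM with antimiR-195 and 81.2 to 96.7 CPM with hydrogel alone, and Gata6, which gave most of it, is also a heart muscle gene. Gata6 was at -0.13 ± 0.14, F5 at -0.23 ± 0.59, Icam2 at 0.20 ± 0.20 and Selp at 0.06 ± 0.24. Alox15, the listed gene below the filter, had 0 to 22 reads per library. It averaged 0.168 ± 0.146 CPM with antimiR-195 and 0.635 ± 0.399 CPM with hydrogel alone, and the groups overlapped. The part of serous cavity macrophages in the Timd4 and Retnla values was not tested either.

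Among the growth factors and regulators of macrophages, 14 of 17 listed genes were tested, 8 were negative and 6 positive, with a median of -0.04, a range of -0.51 to 0.43 and 0 called. Csf1, the growth factor that CSF1R binds, averaged 66.9 ± 10.6 CPM with antimiR-195 and 65.1 ± 5.80 CPM with hydrogel alone, a log2 difference of 0.04 ± 0.13, and Il34, the other ligand, was at -0.10 ± 0.20. Spi1, which encodes the macrophage transcription factor PU.1, was at -0.08 ± 0.18 and Irf8 at 0.02 ± 0.14. The inducers of Retnla and Mgl2 were at the limit of detection, with 0 to 1 reads of Il4 per library and 0 reads of Il13 in any library. Il4ra, the receptor chain for both, was highest of the list at 0.43 ± 0.19 and Irf4, a transcription factor induced by IL-4, lowest at -0.51 ± 0.27. A count of 0 allows up to 3 reads, or 0.138 to 0.180 CPM depending on the library, and covers counting error only.

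Promoters of 3 of the genes are shown, F13a1 as the gene whose groups lay apart, and Vsig4 and Retnla for the words of macrophage factors that they hold. The sequences are RefSeq's for GRCm38.p6, from 250 bases before to 50 bases after the transcript start, 5′ to 3′ on the strand of the gene. Capitals mark the words GAGGAA, a core of PU.1 sites, TGCTGA, found in sites of MAF factors, and the STAT6 motif, which is TTC and GAA with 4 bases between them, on either strand.
F13a1 promoter, chr13:37050195-37050494, minus strand: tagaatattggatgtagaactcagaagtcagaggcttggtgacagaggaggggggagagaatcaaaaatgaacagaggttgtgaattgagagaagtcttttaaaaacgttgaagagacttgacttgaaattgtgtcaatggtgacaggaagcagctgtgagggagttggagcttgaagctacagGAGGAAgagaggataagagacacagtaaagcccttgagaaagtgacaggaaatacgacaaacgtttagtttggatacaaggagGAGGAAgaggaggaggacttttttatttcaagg
Vsig4 promoter, chrX:96293389-96293688, minus strand: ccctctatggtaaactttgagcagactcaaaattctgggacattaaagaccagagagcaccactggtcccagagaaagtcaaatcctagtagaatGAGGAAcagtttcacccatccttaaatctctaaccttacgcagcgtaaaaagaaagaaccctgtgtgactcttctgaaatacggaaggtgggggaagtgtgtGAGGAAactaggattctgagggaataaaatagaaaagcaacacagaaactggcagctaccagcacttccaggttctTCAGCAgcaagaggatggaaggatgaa
Retnla promoter, chr16:48842359-48842658, plus strand: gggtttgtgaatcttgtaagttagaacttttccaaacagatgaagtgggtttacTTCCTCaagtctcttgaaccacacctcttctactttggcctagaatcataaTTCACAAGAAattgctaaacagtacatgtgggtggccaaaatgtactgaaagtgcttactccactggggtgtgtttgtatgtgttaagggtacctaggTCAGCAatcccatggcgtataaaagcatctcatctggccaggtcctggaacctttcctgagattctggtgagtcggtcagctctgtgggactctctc
RefSeq entries were matched for 8 of the 9 genes, without Lyve1, with 10 promoters among them. The word GAGGAA was in at least 1 promoter of 5 of the 8, and in 28.3% of all 32851 mouse promoters of this length. TGCTGA was in 5 of the 8 and 19.5% of all promoters, and the STAT6 motif in 2 of the 8, Cbr2 and Retnla, and 6.95% of all. The Cd163 promoter held none of the 3 motifs, and no 2 matches overlapped in the promoters shown. A match describes letters and is not a binding site, and 2 of the genes, F13a1 and Folr2, had 2 entries each in which to hold one.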

How the data were processed

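The members and gene lists were chosen with earlier results of these data known. TRIzol RNA entered a TruSeq stranded mRNA library kit, per the labels' protocols. STAR, HTSeq, DESeq and GRCm38 appear without versions in the submitters' processing notes. Strand setting and annotation release are not given there. The deposited counts are whole reads per Ensembl gene, 16872968 to 22751753 per library; the library files and the series table held the same counts. Reads in more than 1 place took 42.1% to 47.8% of lines, so genes with close copies are uncertain. The authors' RPKM, deposited beside the counts, gave levels per length and implied gene lengths and entered alternatives. Summary lines of HTSeq were not used: reads outside genes were 6.38% to 7.55% and ambiguous reads 0.772% to 1.05% of the uniquely aligned reads. Genes were named with GENCODE M21, 36429 of 38293.

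Counts of genes kept by filterByExpr were scaled by TMM factors (0.953 to 1.04) and tested with edgeR 4.0.16 (quasi-likelihood, R 4.3.3) over 8 libraries, with Benjamini-Hochberg adjustment over 13972 genes and a threshold of 0.05. CPM were computed from these sizes, and log2 CPM with a prior count of 2. The SE of a log2 difference was not fitted directly. It was the size of the difference divided by the square root of the quasi-likelihood F statistic. Replicates were numbered in accession order. A p-value reflects only how these libraries vary. DESeq2 1.42.0, limma 3.58.1, other factors, no filter, log2(RPKM + 0.1) and log2(RPKM + 1), each library left out and, added after seeing the data, limma-trend on log2 CPM with a loess fit of gene length (span 0.3) removed or kept were alternatives. The edgeR, DESeq2 and limma fits were tested on simulated data with known changes. Those data had the same relative spread for every gene, no length trend between libraries and changes larger than the differences of the 9 genes. They cannot say how the fits treat differences as small as those of the 9. Named genes were the 9, the leading 4 tested genes of each list where the text describes it (medians only for neutrophil, blood endothelial, fibroblast, cardiomyocyte and lymphocyte lists), and the 6 most like the 9 within groups. Alox15, Ccl21a, Clec4e, Il4ra, Irf4, Reln, the genes at or near 0 reads and those below 1 CPM were chosen after their values were seen.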

Additional observations from a re-analysis of the deposited data

Results flagged for a closer look

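Among the 18 combinations of 9 genes and 2 groups, 1 held a library far from the other 3: Lyve1 in antimiR-195 replicate 2, at 9.19 CPM, where the gap to the next library was 0.846 of the range of the group. Chance gives about 1 in 20 such groups. In that library Lyve1 stood at -0.82 on the log2 scale from the mean of the other 3, where genes of like length stood at a median of 0.11, and its log2 difference between the groups was -0.45 in limma-trend both with the length trend removed and with it kept.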

How the results depend on the processing

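In all 18 alternatives, 0 genes were called, by edgeR, DESeq2 or limma, and the median of the 9 genes stayed between -0.49 and -0.27, with -0.49 to -0.34 when 1 library was left out. The number of the 9 with a negative log2 difference was 8 or 9. Genes at an unadjusted p below 0.05 were 178 in the edgeR fit, 333 with limma-voom and quality weights, 428 without the filter on low counts, and 104 to 352 with 1 library left out. With limma-voom and quality weights the median was -0.27, Cd163 was at -0.04, Lyve1 at -0.22, Timd4 at -0.33 and Retnla at -0.19, while the list medians were -0.14 for the core, -0.16 for the second resident and 0.02 for the injury macrophage genes. With log2(RPKM + 1), which shrinks low genes, Timd4 was at -0.23 and Vsig4 at -0.32, and the median of T, NK and B cell genes was 0.10. Cbr2 was the 1 gene whose sign changed, over -0.13 to 0.15. No paired analysis was possible because the replicate numbers were given in accession order and pair nothing. Depth limits Timd4, Retnla and Vsig4, all within 15 to 116 reads per library.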

Other observations

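Partners and relatives of the 9 proteins were read from the same fit, and 0 of the 13 partners and 9 relatives tested were called. Complement C3, whose fragments VSIG4 binds, averaged 186 ± 19.8 CPM with antimiR-195 and 230 ± 14.6 CPM with hydrogel alone (SD, n = 4 each), a log2 difference of -0.31 ± 0.12, with every antimiR-195 library just below every hydrogel library. C3 was the 1 tested partner of 13 so placed, beside 0.544% of all genes tested. Haptoglobin (Hp), which carries haemoglobin to CD163, was at -0.20 ± 0.28, and haem oxygenase 1 (Hmox1), which breaks down the haem taken up, at 0.16 ± 0.25. Fibronectin (Fn1), which factor XIII cross-links to fibrin, was at 0.25 ± 0.22.

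Among relatives, Clec10a, the neighbour of Mgl2, averaged 8.62 ± 1.27 CPM with antimiR-195 and 9.12 ± 0.705 CPM with hydrogel alone, a log2 difference of -0.08 ± 0.14, beside -0.41 ± 0.21 for Mgl2. The resistin-like gene Retnlg was at -0.40 ± 0.49, Havcr2, a relative of Timd4, at -0.29 ± 0.24 and Dcxr, a carbonyl reductase like Cbr2, at -0.03 ± 0.22, and Retnlb had 0 reads in any library. Clec4e, a lectin of inflammatory macrophages, averaged 2.57 ± 0.591 CPM with antimiR-195 and 1.81 ± 0.0958 CPM with hydrogel alone, a log2 difference of 0.51 ± 0.21, and was the 1 gene of the injury macrophage list in which antimiR-195 libraries all lay above the others, beside 0.53% of all genes tested.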
